A study of Mus musculus with 10 samples.

Results

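Prostaglandins and leukotrienes are made from arachidonic acid, and 10 genes of their synthesis and breakdown were examined in the kidney cortex of mice with aristolochic acid nephropathy (AAN). The members were listed by name for their place in the pathway: *Ptgs1*, *Ptgs2*, *Ptges*, *Ptgds*, *Ptgis*, *Hpgd*, *Hpgds*, *Alox5*, *Alox5ap* and *Ltc4s*. Earlier results of these data were known when they were chosen. They are 10 of the 21792 genes with values, and all 10 passed the filter on low values that left 17129 genes to test. RNA was sequenced from the renal cortex of 4 sham mice and 6 AAN mice at day 28. All mice were wild-type male C57BL/6 animals, aged 8 weeks at the start of the model, 28 days before the tissue was taken. AAN mice had received a single intraperitoneal injection of aristolochic acid, a plant nephrotoxin, at 5 mg/kg in PBS, and sham mice the same amount of PBS. Each library came from 1 mouse, so the errors given here are the spread between mice, and the model is a single dose seen at a single time.

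In these pathways, phospholipases release arachidonic acid from membranes. Cyclooxygenases turn it into the unstable prostaglandin H, and terminal synthases then make prostaglandin E, D, F, prostacyclin or thromboxane from it. 5-Lipoxygenase, helped by its activating protein, makes leukotriene A from the same acid, which is converted either to leukotriene B or, with glutathione, to the cysteinyl leukotrienes. In the kidney, prostaglandins are known for their part in blood flow, renin release and salt and water handling, whereas leukotrienes are made mainly by leukocytes.

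Levels are given as fragments per kilobase of transcript and per 1 M fragments (FPKM), which is a scale per length, so that genes can be set beside each other. Depth, recovered from the low values, was 15.8 to 17.5 M fragments in sham mice and 13.4 to 16.5 M in AAN mice. Mitochondrial genes held 39.5% to 61.4% of the summed FPKM of a sham mouse and 21.4% to 55.0% of that of an AAN mouse. FPKM are scaled to the fragments of a library and not to this sum. The median gene tested was higher in AAN mice by 0.75 on the log2 scale, and this median was 0.065 after median-of-ratios scaling between mice, a shift of 0.68. Among sham mice the factor that this scaling divides by was lowest in B634 (0.608), with the highest mitochondrial share. It was highest in B607 (0.850), with the lowest share. Among AAN mice it was lowest in B630 (1.12), with the highest share, but highest in A483 (1.34), without the lowest. The part of mitochondrial fragments in the shift was not tested. Markers of the cortex were abundant in sham mice, where the 5 proximal tubule genes summed to 1594 to 3449 FPKM, and *Slc14a2*, a urea transporter of the inner medulla, was at 0 to 0.0180 FPKM, and averaged 0.649 FPKM in AAN mice. The AAN mouse B614 had the highest sums of AAN mice for the proximal tubule (1787 FPKM) and thick limb (1834 FPKM) and the lowest for leukocytes and macrophages. Not every gene followed these last sums. The macrophage gene *Adgre1* was highest in B614 (22.3 FPKM). The leukocyte genes *Ptprc* and *Laptm5* were lowest in B639 (4.18 FPKM, 4.54 in B614) and B630 (16.1 FPKM, 28.5 in B614). The other genes of both lists were lowest in B614.

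Of the 10 members, 9 rose in AAN mice and 0 fell, by limma with a limit of 0.05 on the adjusted p and a minimum change of 2-fold. Over all genes tested, 35.8% were higher and 3.43% lower by the same rule. For these 9 members the lowest of the 6 AAN mice exceeded the highest of the 4 sham mice, as was the case for 40.3% of all genes. The count was 6 with a pseudocount of 1, 9 with each mouse left out in turn, B614 included, and 9 among the 3 sham and 5 AAN mice whose tags begin with B. The remaining member was *Ptges*. The median log2 difference of the members was 1.47, beside 0.75 for all genes. After the median of ratios 5 members were higher (*Ptgs2*, *Ptgds*, *Hpgds*, *Alox5* and *Alox5ap*) and 0 lower, where 19.0% of all genes were higher and 10.5% lower, and the members' median was 0.90. In whole cortex, more cells of a type and more RNA per cell cannot be told apart.

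**Figure D1:**
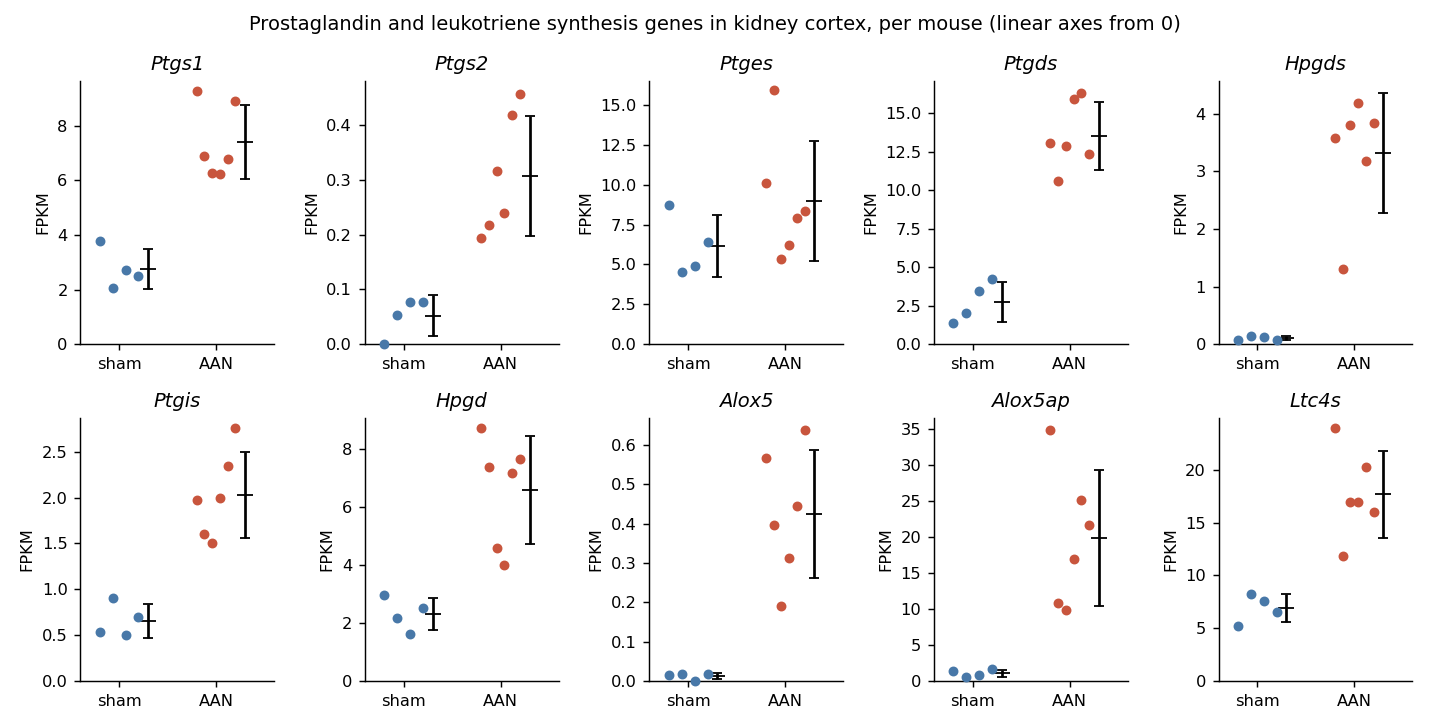
Level of each member in FPKM (vertical axis, linear, from 0) in each of the 4 sham (blue) and 6 AAN (red) mice, 1 point per mouse, with the group mean and SD as a black bar. The points of the groups overlap for *Ptges*, where 2 of 6 AAN mice lie above all sham mice, and are apart for the other 9 genes.

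*Ptgs1* and *Ptgs2* encode the cyclooxygenases, the enzyme found in most tissues and the inducible one, which in the cortex is known from the macula densa and thick limb. *Ptgs1* (ENSMUSG00000047250) lies on chromosome 2 of GRCm38 from 36230426 to 36252272, plus strand. Its level was 3.79, 2.06, 2.71 and 2.51 FPKM in the sham mice B607, B634, B636 and H249. In AAN mice it went from 6.25 (lowest) over 6.84 (median) to 9.28 FPKM (highest). Every AAN mouse stood well above the highest sham mouse. Mean levels were 2.77 ± 0.733 FPKM (SD, n = 4) and 7.40 ± 1.35 FPKM (SD, n = 6), and the difference was 1.40 on the log2(FPKM + 0.1) scale (standard error 0.20, adjusted p = 8.24e-05 from limma). After the median of ratios it was 0.66, still with an adjusted p of 0.00262 from limma but under the 2-fold limit.

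*Ptgs2* (ENSMUSG00000032487, chromosome 1 from 150100031 to 150108227, plus strand) was much scarcer. It was listed at 0 FPKM in the sham mouse B607 and at 0.0538, 0.0776 and 0.0775 FPKM in B634, B636 and H249. AAN mice had 0.194 FPKM at the lowest, 0.277 at the median and 0.457 at the highest. The groups did not overlap, although the highest AAN mouse was still below the lowest value of *Ptgs1* in any mouse. These levels stood for 0 to 5.69 fragments per sham mouse and 14.2 to 33.2 per AAN mouse over the longest transcript, and a value of 0 in B607 allows up to 0.0385 FPKM (3 fragments). Summed over mice and divided by depth, the fragments were 5.65 times as many in AAN as in sham mice (95% exact interval 3.34 to 10.2, counting error only). The log2 difference was 1.41 (standard error 0.28, adjusted p = 0.00106 from limma), and 1.01 after the median of ratios (adjusted p = 0.0126 from limma). It was 0.31 with a pseudocount of 1, under 2-fold, 2.68 with 0.01 and 0.48, with an adjusted p of 0.278 from limma, after quantile normalization. The 4 thick limb and macula densa genes summed to 443 to 1620 FPKM in sham and 183 to 1834 FPKM in AAN mice, where 1 of 3 tested fell. Most of this sum was *Umod* (376 to 1523 FPKM in sham and 147 to 1719 FPKM in AAN mice). *Nos1*, which stayed under the filter, was at 0.00424 to 0.111 FPKM in sham and 0.0554 to 0.171 FPKM in AAN mice. The sum therefore says little about *Nos1*. The part of thick limb and macula densa cells in the *Ptgs2* values was not tested.

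To see whether 1 cyclooxygenase moved more than the other, their log2 difference was taken within each mouse, which no scaling between mice can move except through the pseudocount. *Ptgs2* minus *Ptgs1* was -4.24 ± 0.70 in sham mice (SD, n = 4) and -4.23 ± 0.45 in AAN mice (SD, n = 6). A change was not detected (0.011, standard error 0.39, two-sided exact permutation test, p = 0.971), and *Ptgs2* held the lower level in all 10 mice. With a pseudocount of 1 the difference was -0.85 (permutation adjusted p = 0.00952), so at these *Ptgs2* levels the ratio is not well fixed.

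The 250 bases before the RefSeq start of the pair are shown because both cyclooxygenase genes rose. They come from the RefSeq promoter windows of GRCm38.p6, which hold 8 of the 10 members (not *Alox5ap* and *Ptgis*), and were searched on both strands for 5 motifs: a TATA box (TATAAA), a GC box (GGGCGG), a PU.1 site (GAGGAAGT), a CRE half-site (TGACG) and an E-box (CACGTG). Capitals mark matches, and the sequences read 5′ to 3′ along the gene.
Ptgs1, chr2:36230176-36230425, plus strand: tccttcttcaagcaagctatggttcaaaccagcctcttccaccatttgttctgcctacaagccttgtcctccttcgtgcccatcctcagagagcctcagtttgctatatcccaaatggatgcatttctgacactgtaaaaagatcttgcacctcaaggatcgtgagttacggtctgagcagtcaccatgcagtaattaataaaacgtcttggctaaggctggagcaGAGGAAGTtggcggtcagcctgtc
Ptgs2, chr1:150099781-150100030, plus strand: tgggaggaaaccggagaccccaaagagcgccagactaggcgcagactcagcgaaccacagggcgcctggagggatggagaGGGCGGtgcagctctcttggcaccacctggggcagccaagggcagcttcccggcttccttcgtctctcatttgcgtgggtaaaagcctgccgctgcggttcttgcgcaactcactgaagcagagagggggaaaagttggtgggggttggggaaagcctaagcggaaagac
The *Ptgs1* window has 1 match, to the PU.1 motif, that begins 24 bases before the start, and 2.44% of the 32851 windows of this length hold that motif. The *Ptgs2* window has 1 match to the GC box, 170 bases before the start, a motif in 32.7% of windows. The GC content was 48.0% for *Ptgs1* and 61.6% for *Ptgs2*, with a median of 52.4% over all windows. A match describes these letters and not binding.

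*Ptges* encodes the inducible microsomal prostaglandin E synthase (ENSMUSG00000050737, chromosome 2 from 30889471 to 30929863, minus strand). It was at 8.75, 4.50, 4.90 and 6.43 FPKM in the sham mice B607, B634, B636 and H249, and at 5.34 (lowest), 8.13 (median) and 15.9 FPKM (highest) in AAN mice. The groups overlapped, and the highest AAN mouse, B614, stood apart from the next one at 10.1 FPKM. Means were 6.14 ± 1.92 FPKM (SD, n = 4) and 8.97 ± 3.79 FPKM (SD, n = 6), and the log2 difference of 0.50 did not pass the test (standard error 0.29, adjusted p = 0.160 from limma, 95% interval -0.15 to 1.14). It changed sign to -0.26 after the median of ratios and to -0.19 after quantile normalization. The 4 collecting duct genes, from a segment known to make prostaglandin E, summed to 122 to 180 FPKM in sham mice and 58.2 to 192 FPKM in AAN mice, and B614 had that highest sum too. The genes did not all follow it. Among AAN mice *Aqp3* and *Scnn1b* were highest in B614. *Aqp2* was highest in B630 (90.4 FPKM, 86.3 in B614), and *Fxyd4* was lowest in B614 (5.00 FPKM). The part of collecting duct cells in the *Ptges* values was not tested.

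Within mice, *Ptges* fell against the gene for prostaglandin breakdown. *Hpgd* (ENSMUSG00000031613, chromosome 8 from 56294585 to 56321043, plus strand) encodes the dehydrogenase that inactivates prostaglandins. It was at 2.96, 2.17, 1.63 and 2.51 FPKM in the sham mice in the same order, and at 4.00 (lowest), 7.28 (median) and 8.72 FPKM (highest) in AAN mice. All AAN mice were above all sham mice, with 2 AAN mice, at 4.00 and 4.58 FPKM, nearer to them than the other 4. The log2 difference was 1.45 (standard error 0.25, adjusted p = 0.000408 from limma), and 0.71 after the median of ratios (limma adjusted p = 0.0169), short of 2-fold. *Ptges* minus *Hpgd* went from 1.35 ± 0.24 in sham mice (SD, n = 4) to 0.40 ± 0.39 in AAN mice (SD, n = 6), a change of -0.95 (standard error 0.20, two-sided exact permutation test, p = 0.0143, adjusted p = 0.0250 over the 14 pairs of genes compared). In 5 of 6 AAN mice it lay below all sham mice. Among the mice with B tags alone the change was -0.92 (permutation adjusted p = 0.0938).

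Against *Ptgs1*, *Ptges* changed by -0.91 (standard error 0.23, two-sided exact permutation test, p = 0.0333, adjusted p = 0.0519), just outside the limit. Without the AAN mouse B614 the change was -1.10 (permutation adjusted p = 0.0123), and with no pseudocount and all mice it was -0.93 (permutation adjusted p = 0.0408 over the 10 pairs that could be formed), both inside the limit. *Ptges* minus *Ptgs2* changed by -0.92 (standard error 0.50, two-sided exact permutation test, p = 0.105), by -1.16 without B614 (permutation adjusted p = 0.0444) and by -0.54 without the sham mouse B607, in which *Ptgs2* was listed at 0 (permutation adjusted p = 0.333). With a pseudocount of 0.01 it was -2.18 (permutation adjusted p = 0.0286) and with 1 it was 0.13 (permutation adjusted p = 0.738), so neither the size nor the call of this pair is stable.

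Prostaglandin D can be made by 2 unrelated enzymes, the lipocalin type encoded by *Ptgds* and the hematopoietic type encoded by *Hpgds*, which is known from mast cells, macrophages and some T cells. *Ptgds* (ENSMUSG00000015090, chromosome 2 from 25466709 to 25470046, minus strand) was at 1.38, 2.0, 3.44 and 4.21 FPKM in the sham mice B607, B634, B636 and H249. It was at 10.6 (lowest), 13.0 (median) and 16.3 FPKM (highest) in AAN mice. The groups lay far apart, and the sham mice differed among themselves more than the AAN mice did in relation to their level. Means were 2.76 ± 1.298 FPKM (SD, n = 4) and 13.5 ± 2.21 FPKM (SD, n = 6), with a log2 difference of 2.36 (standard error 0.28, adjusted p = 1.94e-05 from limma). After the median of ratios it was 1.61 (limma adjusted p = 0.000778).

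*Hpgds* (ENSMUSG00000029919, chromosome 6 from 65117293 to 65144908, minus strand) was close to absent in sham mice, at 0.0816, 0.139, 0.126 and 0.0788 FPKM, or 5.05 to 8.59 fragments per mouse over the longest transcript. AAN mice had 1.31 (lowest), 3.69 (median) and 4.18 FPKM (highest). The lowest was B614, and the other 5 lay between 3.18 and 4.18 FPKM. Means were 0.107 ± 0.0309 FPKM (SD, n = 4) and 3.32 ± 1.04 FPKM (SD, n = 6), and the summed fragments per depth were 30.4 times as many in AAN mice (95% exact interval 20.9 to 45.9). The log2 difference was 3.98 (standard error 0.30, adjusted p = 6.82e-07 from limma), and 3.41 after the median of ratios. It was 1.92 with a pseudocount of 1 and 4.78 with 0.01. Within mice, *Hpgds* minus *Ptgds* rose by 1.61 (standard error 0.42, two-sided exact permutation test, p = 0.00476, adjusted p = 0.00952, the smallest this design allows), from -3.68 to -2.06, so that *Ptgds* kept the higher level in each mouse. This rise was 2.50 with no pseudocount, an alternative added after the data were seen, but -0.087 with a pseudocount of 1, which is far above the sham level of *Hpgds*, and 1.27 among the mice with B tags alone (permutation adjusted p = 0.0714).

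The *Hpgds* window, on the minus strand, is shown because this gene and *Alox5* were nearly absent in sham mice and had the largest ratios between groups.
Hpgds, chr6:65144731-65144980, minus strand: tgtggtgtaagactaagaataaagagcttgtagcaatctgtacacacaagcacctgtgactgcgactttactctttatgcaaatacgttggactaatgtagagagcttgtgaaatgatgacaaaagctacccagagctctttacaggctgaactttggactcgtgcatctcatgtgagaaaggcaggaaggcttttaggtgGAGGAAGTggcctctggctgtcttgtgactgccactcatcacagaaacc
Alox5, chr6:116461179-116461428, minus strand: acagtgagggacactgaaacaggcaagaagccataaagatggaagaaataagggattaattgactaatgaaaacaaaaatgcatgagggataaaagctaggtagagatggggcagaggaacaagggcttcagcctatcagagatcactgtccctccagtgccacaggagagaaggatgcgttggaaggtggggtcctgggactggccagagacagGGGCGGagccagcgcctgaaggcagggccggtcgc
The *Hpgds* window holds the PU.1 motif 49 bases before the RefSeq start, as 2.44% of all windows do, and the *Alox5* window a GC box 35 bases before it. The GENCODE span of *Hpgds* reaches to 65144908, beyond the RefSeq start. This PU.1 match and part of the *Hpgds* window therefore lie inside the gene by that annotation. The windows of *Ptges*, *Ptgds* and *Ltc4s* also lie at least partly inside their GENCODE spans. Of the 8 members with a window, 2 had the PU.1 motif (*Hpgds* and *Ptgs1*), 4 a GC box (*Ptgs2*, *Ptges*, *Hpgd* and *Alox5*) and 0 the TATA, CRE or E-box letters, which 12.4%, 17.8% and 6.02% of all windows hold.

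*Ptgis* encodes prostacyclin synthase, an enzyme known from vessel walls (ENSMUSG00000017969, chromosome 2 from 167191805 to 167240604, minus strand). It was at 0.528, 0.906, 0.504 and 0.697 FPKM in the sham mice B607, B634, B636 and H249 and at 1.502 (lowest), 1.99 (median) and 2.76 FPKM (highest) in AAN mice. The groups did not overlap. The log2 difference was 1.49 (standard error 0.22, adjusted p = 0.000133 from limma), and fell under the 2-fold limit after the median of ratios (0.79, adjusted p = 0.0161 from limma) after quantile normalization (0.31, adjusted p = 0.260 from limma) and with a pseudocount of 1 (0.86). *Ptgis* minus *Ptgs1* changed by 0.092 (standard error 0.35, two-sided exact permutation test, p = 0.743). *Ptgis* overlaps *1110018N20Rik* on the other strand, which was at 0.101 to 0.236 FPKM in sham mice and 0.180 to 0.519 FPKM in AAN mice, and whether the counting used strand is not stated. None of the 4 endothelial genes passed both the test and the 2-fold limit, with summed levels of 22.0 to 36.1 FPKM in sham mice and 34.0 to 48.3 FPKM in AAN mice. *Pecam1* (log2 difference 0.93, limma adjusted p = 0.000155) and *Cdh5* (0.77, limma adjusted p = 0.00342) passed the adjusted limit alone, and *Kdr* (-0.27) and *Emcn* (0.19) did not. After the median of ratios *Pecam1* (0.18) and *Cdh5* (0.017) no longer passed, and *Kdr* was lower (-1.02, limma adjusted p = 0.00736). The part of these cells in the *Ptgis* values was not tested.

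The 3 leukotriene genes all rose, by unequal amounts. *Alox5ap* (ENSMUSG00000060063, chromosome 5 from 149264767 to 149288153, plus strand), the protein that presents arachidonic acid to 5-lipoxygenase, was at 1.36, 0.538, 0.791 and 1.61 FPKM in the sham mice B607, B634, B636 and H249. It reached 9.87 (lowest), 19.3 (median) and 34.8 FPKM (highest) in AAN mice. The lowest AAN mouse was several times above the highest sham mouse, and the AAN mice were themselves widely spread, with B630 and B614 low and A483 high. Means were 1.07 ± 0.494 FPKM (SD, n = 4) and 19.9 ± 9.43 FPKM (SD, n = 6), a ratio of 18.5. The log2 difference was 4.06 (standard error 0.38, adjusted p = 3.62e-06 from limma), and 3.34 after the median of ratios.

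*Alox5*, 5-lipoxygenase itself (ENSMUSG00000025701, chromosome 6 from 116410077 to 116461178, minus strand), was at 0.0154, 0.0170, 0 and 0.0164 FPKM in the same sham mice, which is at most 0.965 fragments in each. A value of 0 in B636 allows up to 0.0510 FPKM, so the sham mice could not be told apart at this depth. AAN mice had 0.191 (lowest), 0.420 (median) and 0.637 FPKM (highest), or 10.6 to 37.1 fragments. All of them were above that limit. The summed fragments were 3 in sham and 143 in AAN mice, a ratio of 33.9 per depth (95% exact interval 11.4 to 166). The log2 difference of 2.16 (standard error 0.28, adjusted p = 4.57e-05 from limma) was 0.48 with a pseudocount of 1 and 4.30 with 0.01, so its size depends on the pseudocount.

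*Ltc4s* encodes leukotriene C synthase, which joins leukotriene A to glutathione (ENSMUSG00000020377, chromosome 11 from 50236461 to 50238616, minus strand). It was the member with the highest mean in sham mice, at 5.24, 8.27, 7.55 and 6.53 FPKM in B607, B634, B636 and H249. AAN mice had 11.9 (lowest), 17.0 (median) and 24.0 FPKM (highest). The groups did not overlap, and B614 was the lowest AAN mouse. Means were 6.90 ± 1.31 FPKM (SD, n = 4) and 17.7 ± 4.12 FPKM (SD, n = 6), with a log2 difference of 1.33 (standard error 0.21, adjusted p = 0.000170 from limma). After the median of ratios it was 0.58 (adjusted p = 0.0624 from limma). *Ltc4s* overlaps the antisense gene *Gm26542* (0.612 to 1.37 FPKM in sham and 1.07 to 1.99 FPKM in AAN mice), whose fragments cannot be told apart from its own if strand was not used.

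Within mice, *Ltc4s* minus *Alox5ap* went from 2.66 ± 0.90 in sham mice (SD, n = 4) to -0.061 ± 0.48 in AAN mice (SD, n = 6), a change of -2.72 (standard error 0.49, two-sided exact permutation test, p = 0.00476, adjusted p = 0.00952). *Alox5ap* minus *Ptgs1* rose by 2.66 (standard error 0.35, same exact test and p values), from below 0 in every sham mouse to above 0 in every AAN mouse. Both changes kept their sign and passed the adjusted limit under all alternatives run, including the mice with B tags alone. *Alox5* minus *Alox5ap* changed by -1.89 (standard error 0.37, adjusted p = 0.00952 in the exact permutation test) but by 0.11 with a pseudocount of 0.01, so that for this pair the data give no stable direction.

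**Figure D2:**
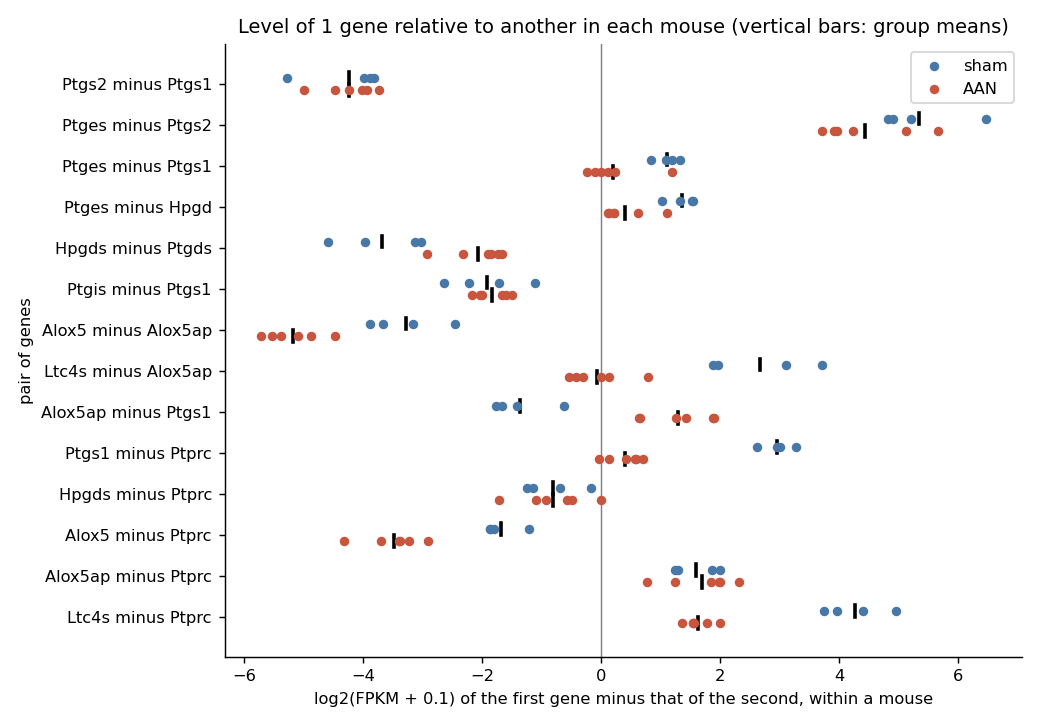
Log2(FPKM + 0.1) of a gene minus that of another in the same mouse (horizontal axis), for the 14 pairs compared, with 1 point per mouse (sham blue, AAN red) and group means as black bars. The groups are apart for *Ltc4s* minus *Alox5ap* and *Alox5ap* minus *Ptgs1*, and overlap for *Ptgs2* minus *Ptgs1*.

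Markers of leukocytes rose with these genes. The 5 leukocyte genes summed to 6.80 to 12.1 FPKM in sham mice and 127 to 408 FPKM in AAN mice, and all 5 rose. The 6 macrophage genes went from 34.3 to 53.1 FPKM to 539 to 1846 FPKM, and 6 of 6 rose. Of 4 neutrophil genes, which summed to 0.228 to 2.05 FPKM in sham and 2.64 to 15.6 FPKM in AAN mice, 3 were tested and rose, while the defining gene *Ly6g* was at 0 in all sham mice and at a mean of 0.0403 FPKM in AAN mice. Of the mast cell genes, *Cpa3*, a mast cell protease, was at 0 in all sham mice and at a mean of 0.0133 FPKM in AAN mice, while *Kit*, a receptor that other cells also carry, rose from 1.28 ± 0.222 to 2.76 ± 0.611 FPKM (SD, n = 4 and 6), a call that was lost after the median of ratios (log2 difference 0.32, limma adjusted p = 0.164). The 4 other mast cell genes of the list (*Mcpt4*, *Cma1*, *Tpsb2* and *Fcer1a*) were not among the genes with values. The 5 fibroblast genes rose too, from 29.4 to 44.6 FPKM to 105 to 257 FPKM. After the median of ratios all leukocyte and macrophage genes were still higher, as were 2 neutrophil and 4 fibroblast genes. The part of these cells in the results was not tested.

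The members were also set against *Ptprc*, the gene for the leukocyte antigen CD45. *Ptprc* averaged 0.265 ± 0.0681 FPKM over the sham mice (SD, n = 4) and 5.62 ± 1.15 FPKM over the AAN mice (SD, n = 6). *Alox5ap* minus *Ptprc* differed by 0.094 between the groups (standard error 0.30, two-sided exact permutation test, p = 0.848) and *Hpgds* minus *Ptprc* by 0.013 (standard error 0.34, two-sided exact permutation test, p = 0.976), and the values of the groups overlapped. With no pseudocount these were -0.22 (standard error 0.30) and 0.50 (standard error 0.48), and with a pseudocount of 1 *Alox5ap* minus *Ptprc* was 0.87, which passed the limit (permutation adjusted p = 0.0370). The sign and call of that pair thus depend on the pseudocount, and the data do not show that either ratio was unchanged. *Ptgs1* minus *Ptprc* fell by 2.56 on the log2 scale (standard error 0.18) and *Ltc4s* minus *Ptprc* fell by 2.63 (standard error 0.28), each with a p of 0.00476 in the exact permutation test (adjusted p = 0.00952). All 6 AAN mice were below all sham mice in both. *Alox5* minus *Ptprc* changed by -1.80 (standard error 0.25, adjusted p = 0.00952 in the exact permutation test), but by -0.068 with a pseudocount of 0.01.

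**Figure D3:**
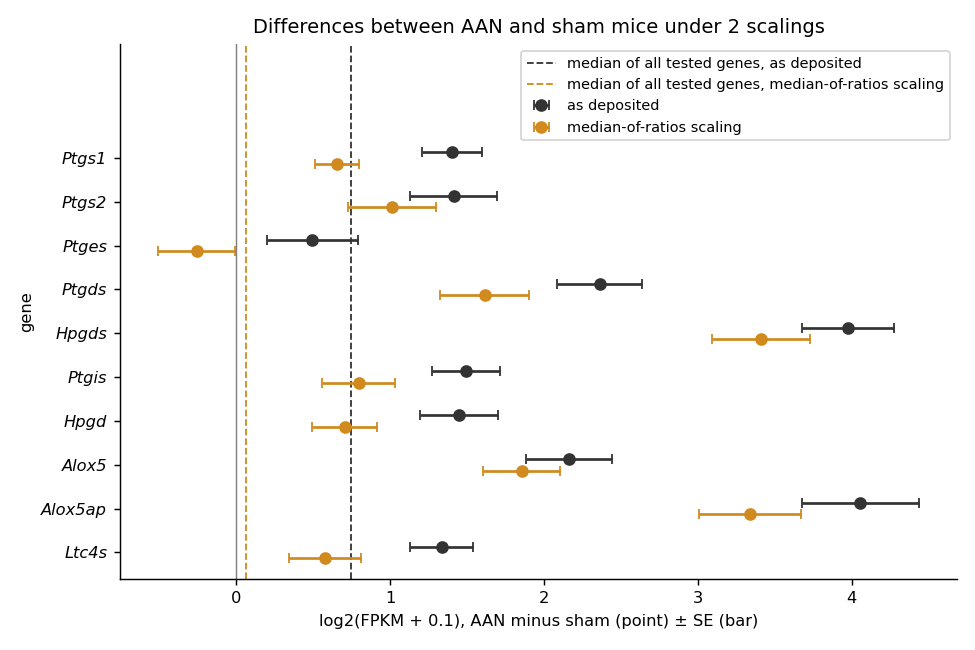
Log2(FPKM + 0.1) difference of AAN minus sham mice for each member (points) with its standard error (bars), as deposited (black) and after the median of ratios (orange). Dashed lines are the medians of all genes tested, 0.75 and 0.065. With this pseudocount *Alox5ap* and *Hpgds* lie farthest right, and *Ptges* lies left of the median in both and below 0 after the median of ratios.

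Relative to the median of all genes, the rises as deposited and with the pseudocount of 0.1 were 3.31 for *Alox5ap*, 3.23 for *Hpgds*, 1.61 for *Ptgds* and 1.42 for *Alox5*, and 0.59 to 0.74 for *Ptgs1*, *Ptgs2*, *Ptgis*, *Hpgd* and *Ltc4s*. *Ptges* was 0.25 below that median (-0.25). The order of the largest differences depends on the pseudocount. With 1, *Alox5ap* was at 3.24, *Ptgds* at 2.01, *Hpgds* at 1.92 and *Alox5* at 0.48 on the log2 scale, and with 0.01, *Hpgds* was at 4.78, *Alox5* at 4.30, *Alox5ap* at 4.18 and *Ptgds* at 2.41. The order of the mean levels changed as well. In sham mice it was *Ltc4s*, *Ptges*, *Ptgs1*, *Ptgds*, *Hpgd*, *Alox5ap*, *Ptgis*, *Hpgds*, *Ptgs2* and *Alox5*, from highest to lowest. The ranges of neighbours overlapped except for the steps from *Ptges* to *Ptgs1*, *Hpgd* to *Alox5ap*, *Ptgis* to *Hpgds* and *Hpgds* to *Ptgs2*. In AAN mice it was *Alox5ap*, *Ltc4s*, *Ptgds*, *Ptges*, *Ptgs1*, *Hpgd*, *Hpgds*, *Ptgis*, *Alox5* and *Ptgs2*, and here the step from *Ptgis* to *Alox5* was the one without overlap. Among AAN mice, A483 was highest in 4 members (*Ptgs1*, *Hpgd*, *Alox5ap* and *Ltc4s*), and B614 was highest in *Ptges* and lowest in *Ptgds*, *Hpgds* and *Ltc4s*.

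Other genes of the pathways were described from a list of 45, also chosen with earlier results of these data known. Of the 45, 42 had values and 38 were tested. Of these 38, 17 rose and 2 fell, with a median log2 difference of 0.86 beside 0.75 for all genes, and after the median of ratios 14 were higher (no longer *Tbxas1*, *Abcc4* and *Ggt5*) and 4 lower (now also *Ptges2* and *Ptgr2*). The shares of all genes given above are the background of these counts. Of 9 genes for arachidonic acid release, 4 rose. *Pla2g4a*, cytosolic phospholipase A2, went from 0.568 ± 0.127 to 2.99 ± 0.594 FPKM (SD, n = 4 and 6), a log2 difference of 2.21 (adjusted p = 2.83e-06 from limma). The lysosomal *Pla2g15* went from 3.09 ± 0.328 to 20.1 ± 4.72 FPKM (log2 difference 2.63, adjusted p = 6.25e-07 from limma). The secreted *Pla2g2d* was at 0 to 0.0606 FPKM in sham mice and 1.95 FPKM or more in AAN mice, and *Pla2g2e* was listed at 0 in all sham mice and averaged 0.286 FPKM in AAN mice.

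Among the 6 other prostanoid synthases, *Tbxas1*, thromboxane synthase, was the one that rose, from 1.34 ± 0.382 to 4.56 ± 0.973 FPKM (SD, n = 4 and 6, log2 difference 1.71, adjusted p = 4.57e-05 from limma). It was at 0.98, under 2-fold, after the median of ratios, so that 0 of the 6 were then higher. The most abundant of them, *Cbr1*, a carbonyl reductase, went from 43.7 ± 7.70 to 68.5 ± 4.82 FPKM, which passed the adjusted limit (limma adjusted p = 0.00256) but not 2-fold (log2 difference 0.66). The log2 differences of *Ptges2* (-0.48), *Ptges3* (0.43) and *Fam213b* (0.39), each with a mean above 5 FPKM in at least 1 group, did not reach 2-fold. Median-of-ratios scaling gave -1.23, -0.33 and -0.37, and *Ptges2* then counted as lower (limma adjusted p = 0.00444). Of 4 genes that move or reduce prostaglandins, *Slco2a1*, the prostaglandin transporter, rose by 2.18 on the log2 scale (adjusted p = 4.88e-06 from limma). *Abcc4*, an exporter, rose by 1.46 (adjusted p = 0.00172 from limma), though its groups overlapped and the difference was 0.70, under 2-fold, after the median of ratios. The reductases *Ptgr1* and *Ptgr2* differed by 0.67 and -0.46, under 2-fold, but *Ptgr2* was lower by the same limits after the median of ratios (-1.22, limma adjusted p = 0.00106).

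Of 9 prostanoid receptors 7 were tested and 3 rose, the prostaglandin E receptors *Ptger4* and *Ptger2* and the prostacyclin receptor *Ptgir*. *Ptger4* went from 0.455 ± 0.115 to 5.62 ± 1.47 FPKM (SD, n = 4 and 6, log2 difference 3.34, adjusted p = 5.85e-07 from limma). *Ptger2* went from a mean of 0.0327 to 0.878 FPKM and *Ptgir* from 0.0767 to 1.36 FPKM. Both prostaglandin D receptors, *Ptgdr* and *Ptgdr2*, were listed at 0 in all sham mice and stayed under the filter, with means of 0.00650 and 0.00793 FPKM in AAN mice. Of 4 leukotriene receptors 3 rose. *Cysltr1*, for cysteinyl leukotrienes, went from a mean of 0.0527 to 1.77 FPKM, *Cysltr2* from 0.198 to 1.27 FPKM, and *Ltb4r1*, for leukotriene B, from 0.272 to 1.82 FPKM.

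The later leukotriene enzymes went both ways. *Ggt1*, a brush border enzyme that can cleave glutathione from leukotriene C, fell from 120 ± 25.6 to 27.1 ± 13.9 FPKM (SD, n = 4 and 6, log2 difference -2.25, adjusted p = 7.16e-05 from limma). *Dpep1*, the brush border dipeptidase of the next step, fell from 102 ± 12.9 to 40.9 ± 31.9 FPKM (log2 difference -1.58, adjusted p = 0.00523 from limma), with groups that overlapped. Their relatives rose at far lower levels, *Dpep2* from a mean of 0.0341 to 2.29 FPKM and *Ggt5* from 0.619 to 1.87 FPKM, the latter by 0.77 on the log2 scale, under 2-fold, after the median of ratios. *Lta4h*, which makes leukotriene B, went from 19.8 ± 3.25 to 35.3 ± 5.24 FPKM, a log2 difference of 0.83 (adjusted p = 0.00119 from limma) that was under 2-fold. Of 5 proximal tubule markers 3 fell, with summed levels of 462 to 1787 FPKM in AAN mice, and their part in the values of *Ggt1* and *Dpep1* was not tested. Among 5 other lipoxygenases, 3 were tested, and *Alox15* and *Alox8* rose from means of 0.0174 and 0.00667 FPKM to 0.402 and 0.290 FPKM.

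**Figure D4:**
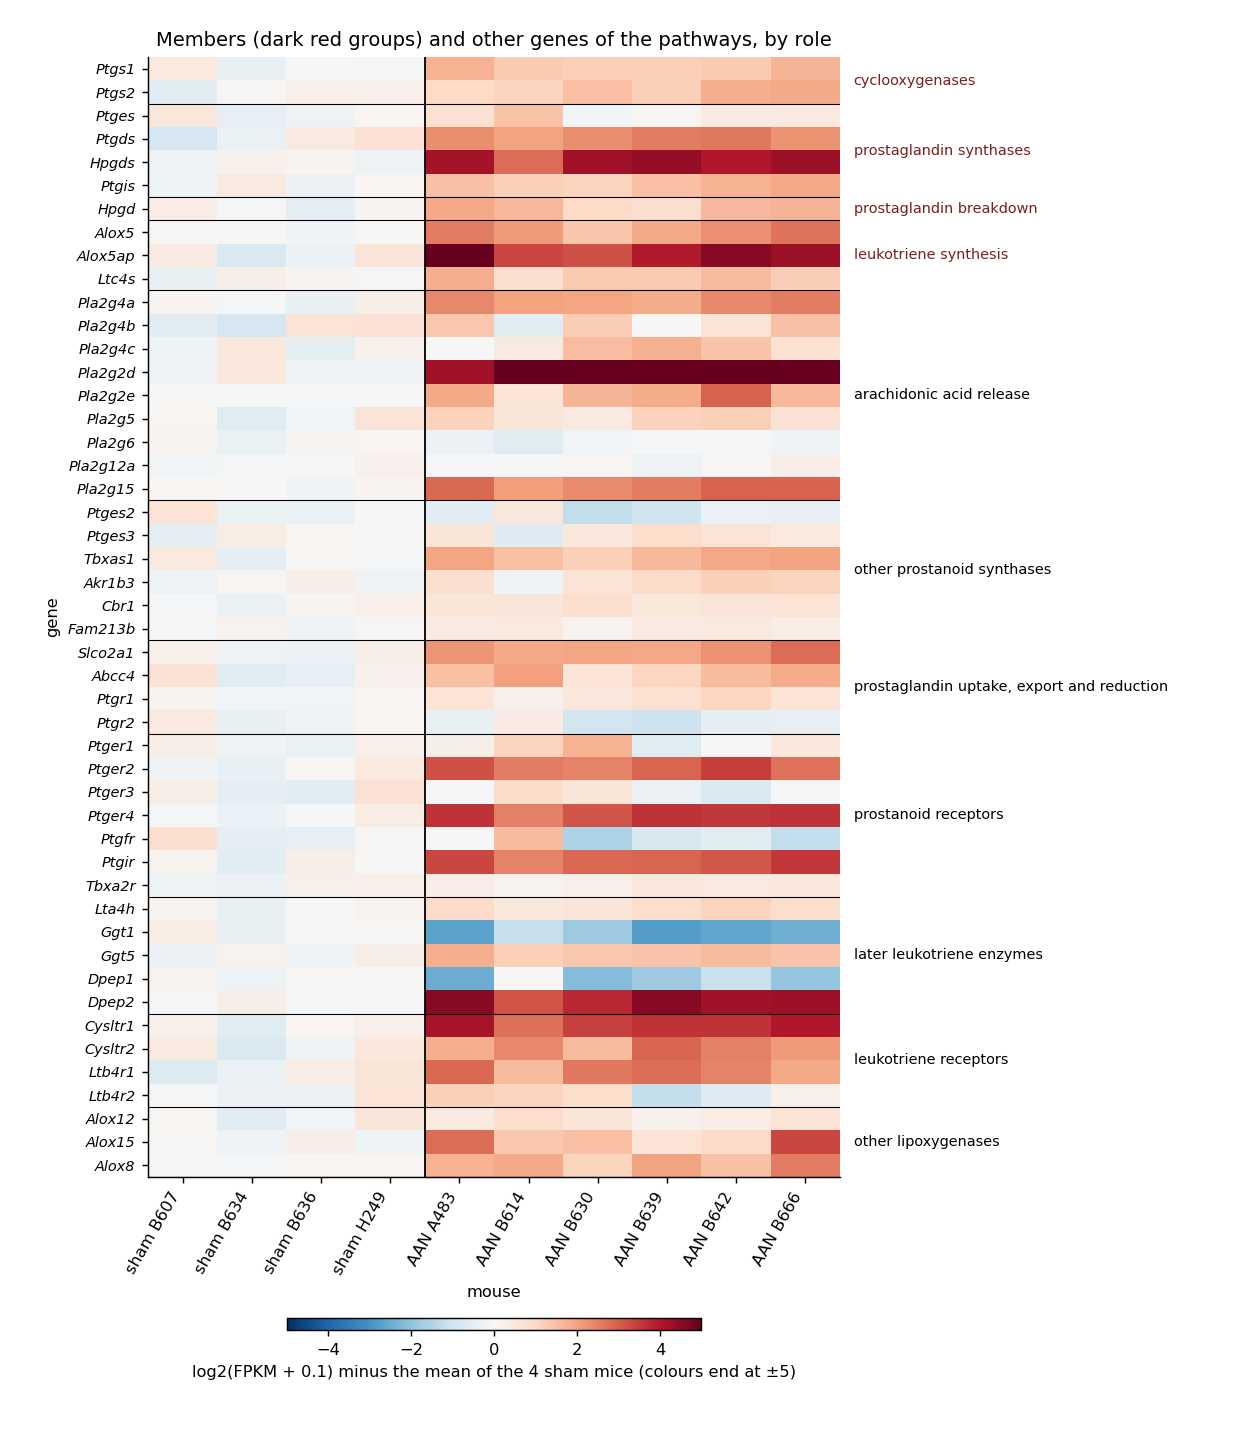
Log2(FPKM + 0.1) of the 10 members and the 38 other tested pathway genes (rows, grouped by role) in each mouse (columns) minus the mean of the 4 sham mice, red for higher and blue for lower, with colours that end at ±5. *Ggt1* and *Dpep1* are the blue rows of the later leukotriene enzymes, and *Dpep1* is near the sham level in the AAN mouse B614.

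How the members varied among mice of the same group was compared with 12246 genes of at least 1 FPKM. Over the 10 mice, after the group means were taken out, the genes with the highest Pearson r were *Olfm1* for *Ptgs1* (0.98), *Mcur1* for *Ptges* (0.99), *Timm50* for *Ptgds* (0.97), *Myl9* for *Ptgis* (0.96), *Fam129a* for *Hpgd* (0.97), *Metrnl* for *Alox5ap* (0.98) and *Ramp1* for *Ltc4s* (0.95). For *Hpgds* it was *Eid2* (0.97, but 0.80 without B614). With 10 mice and this many genes, high values arise readily, and they are given as a description. Among the members themselves, *Ptges* and *Hpgd* had an r of 0.74 (0.86 without B614), and *Ptges* and *Hpgds* one of -0.83 (-0.70 without B614). Some other pairs moved more without this mouse. The r of *Ptges* and *Alox5ap* went from 0.30 to 0.89 and that of *Hpgds* and *Alox5ap* from 0.16 to -0.72. For *Hpgds* and *Ltc4s* it went from 0.68 to 0.23.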

How the data were processed

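Renal cortex RNA of 4 sham and 6 AAN mice was sequenced as paired-end TruSeq libraries on the HiSeq Xten. The authors filtered out rRNA, adapter, short and low-quality reads, mapped with Hisat2 to GRCm38, derived FPKM with Stringtie from known gene models and ran edgeR. The deposited values are FPKM of 21792 genes, without counts, so limma 3.58.1 in R 4.3.3 (lmFit, eBayes with trend and robust, two-sided) was used on log2(FPKM + 0.1). It covered the 17129 genes averaging 0.1 FPKM or more, with Benjamini-Hochberg adjustment over all of them. Differences of 2 genes within a mouse were tested by exact permutation over 210 splits (smallest p 0.00476). Symbols and positions came from GENCODE M21. Depth was recovered from low values of genes with 1 transcript, of which 94.6% to 96.9% were whole fragments within 0.05. Fragments of the members, which mostly have several transcripts, are therefore estimates, and their intervals cover counting error only. Depth of other genes is not counted.

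Groups followed the sample titles. Neither the labels nor the methods give a batch. The members and gene lists were chosen with earlier results of these data known. Pathway genes were counted by list and named if they passed the limits or averaged 5 FPKM or more in a group. For members of at least 1 FPKM the genes with the highest correlation were named. The fit was tested on simulated data. Alternatives were other pseudocounts (1 and 0.01), filters, scalings, limma without trend or robust, no fold limit, each mouse left out and the mice with B tags alone.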

Additional observations from a re-analysis of the deposited data

Results flagged for a closer look

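Dixon's test at the 95% level picked mice that stood apart from the rest of their group. It was applied to 48 sets of values and picked a mouse in 5 of them, where chance alone gives 2.4.

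In the AAN mouse B614, *Hpgds* was at 1.31 FPKM (3.18 to 4.18 in the other 5), and *Ptges* minus *Ptgs1* was 1.19 on the log2 scale (-0.23 to 0.23 in the others). In the sham mouse B636, *Alox5* was listed at 0 FPKM (0.0154 to 0.0170 in the others, at most 0.965 fragments each). In the sham mouse B607, *Ptgs2* minus *Ptgs1* was -5.28 (-3.99 to -3.81 in the others), where *Ptgs2* was listed at 0. In the sham mouse B634, *Alox5* minus *Ptprc* was -1.21 (-1.87 to -1.80 in the others).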

How the results depend on the processing

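No paired analysis was possible because no replicate tag occurs in both groups. The number of members that rose (9) was 5 after the median of ratios and 4 after quantile normalization, 6 with a pseudocount of 1 and 7 of 8 tested with genes averaging 1 FPKM or more, and it was 9 with each mouse left out. The count of pathway genes, whose alternatives were added after the data were seen, went from 17 higher to 11 with a pseudocount of 1 and 11 with genes averaging 1 FPKM or more (fewer genes tested), and from 2 lower to 4 after the median of ratios and 6 after quantile normalization. *Ptgs2* and *Alox5* averaged less than 1 FPKM and have no value under that filter. With each mouse left out, *Hpgds* went from 3.89 to 4.22, *Alox5ap* from 3.80 to 4.27 and *Ptges* from 0.31 to 0.68.

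These values changed sign. *Ptges* was -0.26 after the median of ratios and -0.19 after quantile normalization. With a pseudocount of 1, *Ptgs2* minus *Ptgs1* was -0.85 (now past the limit, permutation adjusted p = 0.00952), *Ptges* minus *Ptgs2* 0.13, *Hpgds* minus *Ptgds* -0.087, *Ptgis* minus *Ptgs1* -0.30 and *Hpgds* minus *Ptprc* -0.45. With 0.01, *Alox5* minus *Alox5ap* was 0.11 and *Alox5ap* minus *Ptprc* -0.18, and the latter was -0.22 with no pseudocount. Among the mice with B tags *Hpgds* minus *Ptprc* was -0.11. With each mouse left out, *Ptgs2* minus *Ptgs1* went from -0.34 to 0.16, *Ptgis* minus *Ptgs1* from -0.15 to 0.36, *Hpgds* minus *Ptprc* from -0.15 to 0.22 and *Alox5ap* minus *Ptprc* from -0.032 to 0.28. *Alox5ap* minus *Ptprc* passed the limit with a pseudocount of 1 (0.87). Where genes near 0 are involved, the pseudocount is by construction a large share of the value, and the other causes were not tested. Pairs past the adjusted limit numbered 8, and 6 to 10 under the alternatives. Depth limits *Ptgs2*, *Hpgds* and *Alox5*, which had fewer than 10 fragments in each sham mouse.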
